A study of Homo sapiens with 6 samples.

Results

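The proteasome subunit genes studied here are the genes whose symbols are PSM followed by a letter from A to G and a number, with at least 10 counts in every library. The count table has 28008 genes. Of these, 48 have such a symbol and 46 passed the minimum. The 2 that did not are PSMA8, the alpha subunit of the testis form, and PSMB11, the catalytic subunit of the thymus form, each with 0 or 1 count in a library. The rule uses no difference between conditions.

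The libraries came from DU-145-DR/tet-MUC1shRNA cells, which are DU-145 prostate cancer cells selected by continuous docetaxel (DTX) exposure and carrying a tetracycline-inducible hairpin against MUC1. The 3 DOX-negative libraries are from cultures given DMSO at 0.1%, and the 3 DOX-positive libraries are from cultures given doxycycline (DOX) at 500 ng/ml to induce the hairpin. The question was how silencing MUC1-C, the oncogenic C-terminal subunit of mucin 1, alters expression. The treatment field gives DTX resistance alone for DOX-negative samples and the hairpin alone for DOX-positive samples, and both groups were taken to be 1 line, as the study describes. Cells given DOX with a control hairpin were not analysed here, so effects of DOX, of the hairpin on other transcripts and of MUC1-C loss cannot be told apart. The line represents 1 resistant derivative of 1 cell line.

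The proteasome is the protease that degrades ubiquitin-tagged proteins. Its core particle is a barrel of alpha subunits (PSMA genes), which form the gated outer rings, and beta subunits (PSMB genes), which form the inner rings and include the catalytic PSMB6 (caspase-like), PSMB7 (trypsin-like) and PSMB5 (chymotrypsin-like, the main target of bortezomib). The regulatory particle, with a base of ATPases (PSMC genes) and a lid (most PSMD genes), caps the core, binds ubiquitin chains, and unfolds and feeds in the substrate. Interferon-gamma induces PSMB9, PSMB10 and PSMB8, which replace PSMB6, PSMB7 and PSMB5 in new particles to give the immunoproteasome, whose products are loaded onto MHC class I.

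Libraries held from 15092691 to 23243713 counts, and the 46 proteasome genes took from 0.619% to 0.690% of them. MUC1, the targeted gene, was at 21.3, 24.7 and 19.7 CPM (counts relative to library size, scaled by the trimmed mean of M values) in DOX-negative libraries and at 3.27, 3.87 and 4.44 CPM in DOX-positive libraries, a log2 fold change of -2.52 (SE 0.146 and edgeR adjusted p = 4.47e-11). The epithelial markers KRT8 (316 to 648 CPM), KRT18, EPCAM and CDH1 were detected in every library. KLK3 and CD3E had 0 counts in every library, PTPRC had at most 3 and PECAM1 at most 6, whereas the fibroblast marker COL1A1 had from 66 to 96 counts (3.79 to 5.01 CPM).

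Most proteasome genes stayed near their DOX-negative level, with 1 large exception, PSMB5. Of the 46 members, 7 (15.2%) passed an adjusted p of 0.05 in edgeR, against a background of 26.7% of the 14292 genes tested. Higher were 4 members (PSMC2, PSMD2, PSMD12 and PSMF1), where 13.0% of all genes were called higher. Lower were 3 members (PSMB5, PSME1 and PSMA4), where 13.7% of all genes were called lower. The CPM of the 2 groups did not overlap for 8 members (17.4%), against 39.8% of all genes. The members called higher had a positive sign in every alternative except with the TPM (a level per transcript length) as deposited, where the median log2 fold change of all genes was itself -0.32 and PSMB5 was the only member called. Without DOX-negative replicate 1 or DOX-positive replicate 1, 4 members were called, and without DOX-positive replicate 2, 10. In the same settings and order, 19.2%, 21.2% and 25.2% of all genes were called. The median log2 fold change of the members was 0.031, beside -0.0034 for all genes, and the median absolute value was 0.078, beside 0.19. For 43 members (93.5%) the log2 fold change lay within 0.3 of 0, as it did for 67.8% of all genes. Replicate noise left room for small changes, but the 95% interval of 42 members lay within 0.5 of 0 on the log2 scale.

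**Figure D1:**
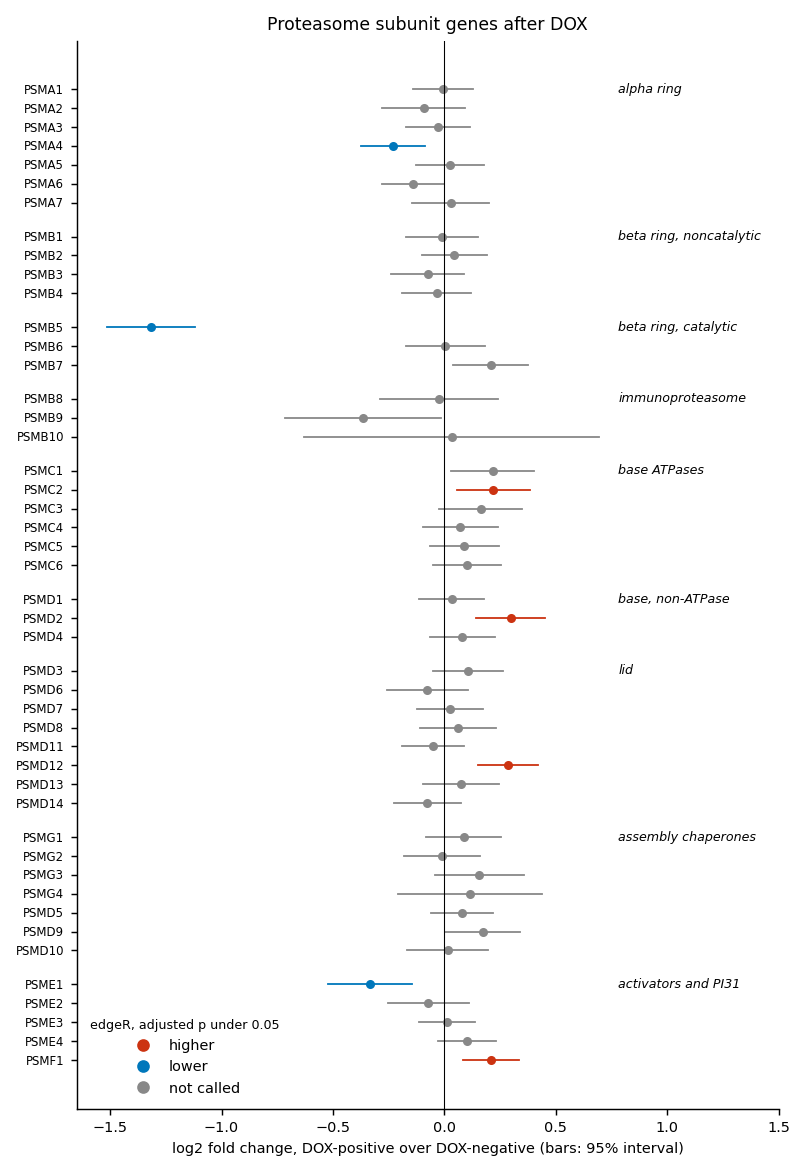
Log2 fold change of DOX-positive over DOX-negative cells (horizontal axis) for the 46 proteasome genes, grouped by role, with 95% intervals from edgeR (3 libraries per group). PSMB5 stands at -1.32 while the other 45 lie between -0.36 and 0.30. Red marks genes called higher and blue marks genes called lower. The sign of the red genes turns negative with the TPM as deposited, but not with the TPM rescaled without 5 short noncoding RNAs.

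PSMB5, the chymotrypsin-like subunit, is on chromosome 14 (chr14:23016543-23035230, minus strand, GRCh38), and its principal transcript PSMB5-202 has 1294 bases in 3 exons. The heptamer ATCAGTA came from an earlier scan that compared 3′UTR words with the fold changes of these same libraries, so its occurrence is a description and supports nothing. PSMB5 holds it in the coding part of exon 2 (chr14:23033427-23033433) and again in the 3′UTR in exon 3 (chr14:23025975-23025981), 124 bases before the transcript end. MUC1 holds it in the coding part of exon 5 of MUC1-201 (chr1:155187772-155187778, minus strand). These sites are shown because PSMB5 was the only member with a copy in both parts of the transcript. The heptamer is in capitals, with 10 bases on each side, as mRNA sense from GENCODE 29.
PSMB5, coding: aacatggtgtATCAGTAcaaaggcatg
PSMB5, 3′UTR: cttcaattgtATCAGTActttttttta
MUC1, coding: acacagttcaATCAGTAtaaaacggaa
The coding window of PSMB5 matched the MUC1 window at 13 of 27 positions and the 3′UTR window at 12. Both counts include the 7 bases of the heptamer, which match by construction. In neither window did the matching run extend past the heptamer. In members that were not called, the match ran from 8 (PSMD3) to 15 (PSMD11) of 27 positions. The sequence of the hairpin is not given in the sources used here, and whether either PSMB5 site is bound by it was not tested.

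PSMB5 was at 57.9, 58.9 and 62.7 CPM in DOX-negative libraries and at 27.1, 20.5 and 24.4 CPM in DOX-positive libraries. Every DOX-positive library was thus below every DOX-negative library, by more than the spread within either group. The mean fell from 59.8 ± 2.57 to 24.0 ± 3.31 CPM (SD, n = 3 each), to 40.1% of the DOX-negative level. The log2 fold change was -1.32 (SE 0.0953, 95% interval -1.51 to -1.12, edgeR adjusted p = 1.19e-09), the 104th lowest of the 14292 genes. It stayed past the threshold in all 17 alternatives, from -1.72 to -1.21. Raw counts were 1051, 1152 and 1261 against 621, 392 and 363, so depth does not limit this value. No other annotated gene lies on its exons and GENCODE 29 names 0 pseudogenes after it. In bulk RNA, less PSMB5 RNA in every cell and a loss in part of the cells cannot be told apart.

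The other catalytic subunits did not move with it. PSMB6, the caspase-like subunit, was at 61.6, 66.4 and 67.9 CPM before and 72.7, 56.8 and 66.8 CPM after DOX, a log2 fold change of 0.0027 (95% interval -0.17 to 0.18, edgeR adjusted p = 0.987). PSMB7, the trypsin-like subunit, was at 155, 147 and 180 CPM against 207, 169 and 180 CPM, a log2 fold change of 0.21 (SE 0.0804 and edgeR adjusted p = 0.0609). The groups overlapped for both genes. PSMB7 did pass when DOX-negative replicate 3 (adjusted p = 0.0110) or DOX-positive replicate 2 (0.0147) was left out, and without a filter on low counts (0.0164). The 4 noncatalytic beta genes, PSMB1 to PSMB4, had log2 fold changes between -0.075 and 0.045, and 0 were called, beside 26.7% of all genes.

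Among the interferon-inducible subunits, 0 of 3 were called by edgeR, beside 26.7% of all genes. PSMB9 did have an unadjusted p under 0.05. PSMB8, which replaces PSMB5, was at 13.9, 14.3 and 14.6 CPM in DOX-negative and 11.5, 15.9 and 14.9 CPM in DOX-positive libraries. Its DOX-positive values lay on both sides of the DOX-negative range, and its log2 fold change was -0.025 (95% interval -0.29 to 0.24, edgeR adjusted p = 0.914). PSMB9, which replaces PSMB6, was at 7.93, 8.80 and 8.91 CPM against 5.14, 8.36 and 6.52 CPM, a log2 fold change of -0.36 (SE 0.169 and edgeR adjusted p = 0.117). It passed (-0.57, adjusted p = 0.0149) without DOX-positive replicate 2, the library in which it was highest after DOX. PSMB10, which replaces PSMB7, had from 19 to 41 counts in a library, at 1.93, 1.07 and 1.64 CPM against 1.79, 1.62 and 1.28 CPM. Its interval of -0.63 to 0.69 excludes neither a rise nor a fall of moderate size, so a change was not detectable at this depth. PSMB8 and PSMB9 share exon bases with each other on opposite strands. Both also share exon bases with PSMB8-AS1, which is antisense to PSMB8 but on the same strand as PSMB9. Whether the counting used strand is not given in the sources used here.

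**Figure D2:**
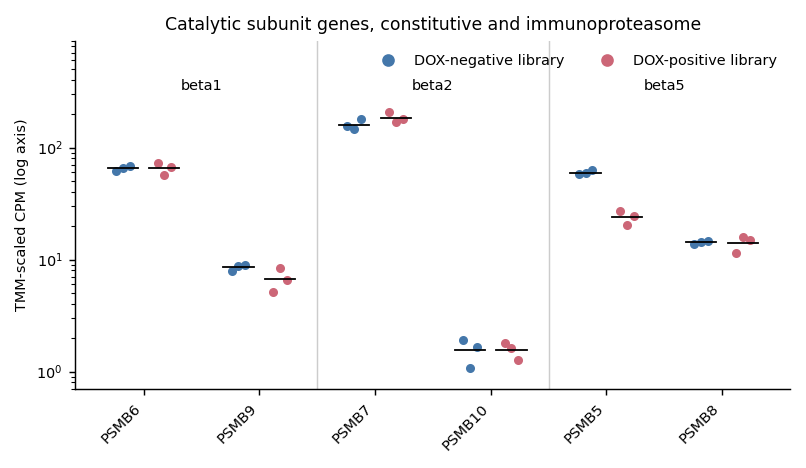
TMM-scaled CPM (vertical, log axis) of the 3 constitutive catalytic subunit genes, each beside the immunoproteasome gene that replaces it, in DOX-negative (blue) and DOX-positive (red) libraries. Points are libraries and bars are group means. PSMB5 is the only one of the 6 genes whose groups do not overlap, at 57.9 to 62.7 against 20.5 to 27.1 CPM.

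The balance between immunoproteasome and constitutive transcripts was followed within each library. The log2 ratio of PSMB8 to PSMB5, from deposited TPM, was -5.63, -5.61 and -5.67 in DOX-negative and -4.81, -3.94 and -4.28 in DOX-positive libraries. It was higher in every DOX-positive library, by 1.30 on average (exact permutation test, two-sided p = 0.1, the smallest that 3 against 3 allows). PSMB5 fell by 1.32 on the log2 scale, whereas PSMB8 was at -0.025 with the interval given above. The ratio of PSMB9 to PSMB6 changed by -0.38 (exact permutation p = 0.4) and that of PSMB10 to PSMB7 by -0.17 (exact permutation p = 0.6), and the groups overlapped in both.

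The size of these ratios depends on the gene lengths behind the deposited TPM, although their changes do not. Dividing counts by TPM implied a length of 20200 bases for PSMB8, 6.74 times its merged exons and 18.0 times its principal transcript, and of 11769 bases for PSMB9, 3.83 times its merged exons. The same ratio to merged exons was 7.29 for TAP1, 10.6 for TAP2 and 5.79 for TAPBP, their neighbours in the MHC region, whereas its 99th percentile over 12385 genes was 3.62. PSMB10, on chromosome 16, had a ratio of 0.566. PSMB8 came to 2.01% of PSMB5 in DOX-negative and 4.93% in DOX-positive cells by deposited TPM. Per kilobase of principal transcript, a scale added after seeing the data, PSMB8 came to 27.4% and 67.4% of PSMB5. On that scale PSMB9 was 14.2% and 11.0% of PSMB6, and PSMB10 was 0.756% and 0.674% of PSMB7.

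In the alpha ring, 1 of 7 genes (14.3%) fell, near the 13.7% of all genes called lower, and the median log2 fold change was -0.029. PSMA4 (chr15:78540405-78552419, plus strand) was at 268, 238 and 286 CPM in DOX-negative and 236, 218 and 220 CPM in DOX-positive libraries. The groups did not overlap, but the gap between the lowest DOX-negative and the highest DOX-positive library was small beside the spread within groups. Its log2 fold change was -0.23 (SE 0.0689 and edgeR adjusted p = 0.0157). The call was lost without DOX-negative replicate 1 (adjusted p = 0.0666), DOX-negative replicate 3 (0.0988) or DOX-positive replicate 3 (0.0644). PSMA6 was at 431, 419 and 477 CPM against 418, 373 and 411 CPM. Its groups did not overlap either, but its log2 fold change of -0.14 did not pass (edgeR adjusted p = 0.120). The other 5 alpha genes were between -0.094 and 0.028. Over the 14 constitutive core genes, 2 (14.3%) fell, also near the share of all genes, 0 rose and the median was -0.020.

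Levels between genes were compared as TPM rescaled without 5 short noncoding RNAs, which took from 34.4% to 64.4% of the deposited TPM of a library. PSMA6 was the most abundant of the 14 core transcripts in every library (1139 ± 49.1 TPM in DOX-negative cells, SD, n = 3), followed by PSMB4 at 803. The order depends on the lengths used. Per kilobase of principal transcript PSMA6 stayed 1st, but PSMB4 ranked 4th, 2nd and 3rd in the DOX-negative libraries. On that scale PSMA4 ranked 11th, 12th and 12th in them, against 4th in rescaled TPM. PSMA5, at 57.8 ± 3.26 TPM, was the least abundant in every DOX-negative library, with PSMB5 next at 132 ± 3.03 TPM. In DOX-positive cells PSMB5 was at 51.8 ± 6.64 TPM and PSMA5 at 58.0 ± 1.22 TPM, and PSMB5 ranked 13th in replicate 1 and 14th in replicates 2 and 3. Per kilobase of principal transcript PSMB5 ranked 13th of 14 in every DOX-negative and 14th in every DOX-positive library. After DOX, PSMB5 and PSMA5 lay within their spread in rescaled TPM, whereas per kilobase PSMB5 (18.5 ± 2.56) was below PSMA5 (22.0 ± 0.398 CPM per kilobase, SD, n = 3) without overlap.

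**Figure D3:**
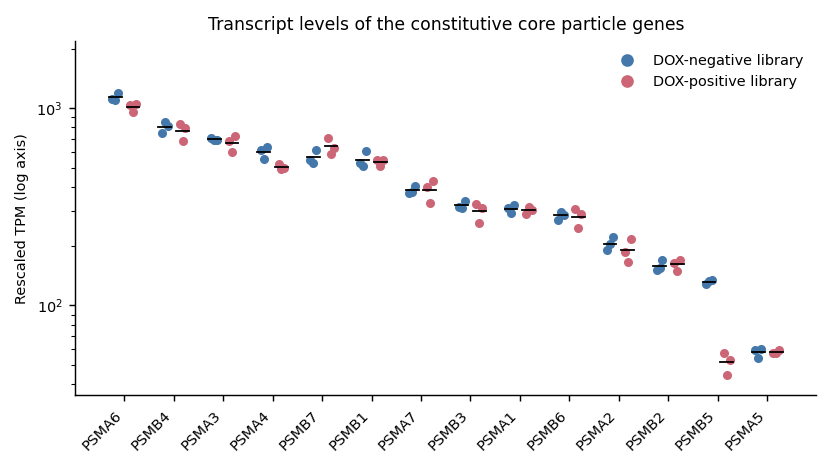
Rescaled TPM (vertical, log axis) of the 14 constitutive core particle genes, ordered by the DOX-negative mean, in each DOX-negative (blue) and DOX-positive (red) library, with group means as bars. PSMB5 falls from 132 to 51.8, to the level of PSMA5 (57.8 and 58.0), and the other genes keep nearly the same order.

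In the regulatory particle, 3 of 17 genes (17.6%) rose, beside 13.0% of all genes, 0 fell and the median log2 fold change was 0.080. The sign was positive for all 9 base genes (median 0.10) and for 14 of the 17, and this sign depends on scaling. With library totals in place of the trimmed mean scaling, 8 of 9 base genes and 12 of 17 were positive, and with the TPM as deposited 0 were. On the deposited TPM the median log2 fold change of all genes was -0.32. With the TPM rescaled without 5 short noncoding RNAs, 9 of 9 and 14 of 17 were positive. PSMD2 (chr3:184298709-184309054, plus strand), the base scaffold on which ubiquitin shuttle proteins dock, was at 613, 664 and 671 CPM in DOX-negative and 865, 690 and 837 CPM in DOX-positive libraries. The DOX-positive libraries were all higher, replicate 2 by little. Its log2 fold change was 0.30 (SE 0.0748 and edgeR adjusted p = 0.0051), and -0.10 with the TPM as deposited.

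PSMC2 (chr7:103344254-103369395, plus strand) is an ATPase of the base ring. It was at 116, 110 and 136 CPM against 149, 129 and 144 CPM, so the groups overlapped. The log2 fold change of 0.22 (SE 0.0786 and edgeR adjusted p = 0.0425) passed narrowly and was negative (-0.17) with the TPM as deposited. The call was lost without DOX-negative replicate 1 (adjusted p = 0.161) or 2 (0.169) and without DOX-positive replicate 1 (0.175) or 3 (0.118), and with total counts (0.0721) or limma on rescaled TPM (0.0897). PSMC1, at 0.22 (edgeR adjusted p = 0.0804), was not called except without a filter or without DOX-positive replicate 2, and it shares 4671 of its 6161 exon bases with NRDE2 on the other strand and has 13 named pseudogenes. The other 4 ATPases were between 0.072 and 0.16. PSMD1, the other large base scaffold, was at 0.033, and PSMD4, a ubiquitin receptor, at 0.080 (edgeR adjusted p = 0.430).

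In the lid, 1 of 8 genes (12.5%) rose, near the 13.0% of all genes, and the median was 0.043. PSMD12 (chr17:67337916-67366627, minus strand), a lid scaffold subunit, was at 179, 172 and 184 CPM in DOX-negative and 205, 214 and 233 CPM in DOX-positive libraries. The groups did not overlap, and the log2 fold change was 0.28 (SE 0.0651 and edgeR adjusted p = 0.0024), or -0.11 with the TPM as deposited. The call was kept without any 1 library, as was that of PSMD2. PSMD14, the deubiquitinase that removes chains from the substrate, was at -0.076 (edgeR adjusted p = 0.477). The other 6 lid genes were between -0.076 and 0.11.

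Of the 5 genes for caps that can replace or block the regulatory particle, 2 (40%) were called, beside 26.7% of all genes. PSME1 was called lower, PSMF1 higher, and 3 were not called. PSME1 (chr14:24136158-24138967, plus strand), a subunit of the interferon-inducible activator ring, was at 53.1, 47.6 and 52.4 CPM in DOX-negative and 36.9, 46.2 and 38.4 CPM in DOX-positive libraries. All DOX-positive libraries were lower, replicate 2 only slightly, and the log2 fold change was -0.33 (SE 0.0908 and edgeR adjusted p = 0.0087). Without DOX-positive replicate 1 the adjusted p was 0.0620. Its partner in the same ring, PSME2, was at 30.7, 30.0 and 30.3 CPM against 28.3, 28.3 and 30.1 CPM, and its log2 fold change of -0.073 did not pass (edgeR adjusted p = 0.588). Whether PSME1 and PSME2 differ in their change was not tested.

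PSME3, the nuclear activator, was at 340, 329 and 360 CPM against 338, 349 and 350 CPM, a log2 fold change of 0.012 (edgeR adjusted p = 0.908). PSME4, a large single-chain activator, was at 268, 266 and 267 CPM against 289, 265 and 305 CPM, a log2 fold change of 0.10 (edgeR adjusted p = 0.260). PSMF1 (chr20:1113263-1189415, plus strand) encodes PI31, which binds the core and inhibits it in vitro. It rose from 175, 172 and 184 CPM to 207, 205 and 201 CPM with no overlap, a log2 fold change of 0.21 (SE 0.0612 and edgeR adjusted p = 0.0141), or -0.18 with the TPM as deposited. This call was lost without DOX-negative replicate 1 (adjusted p = 0.0684) or DOX-positive replicate 1 (0.0550).

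**Figure D4:**
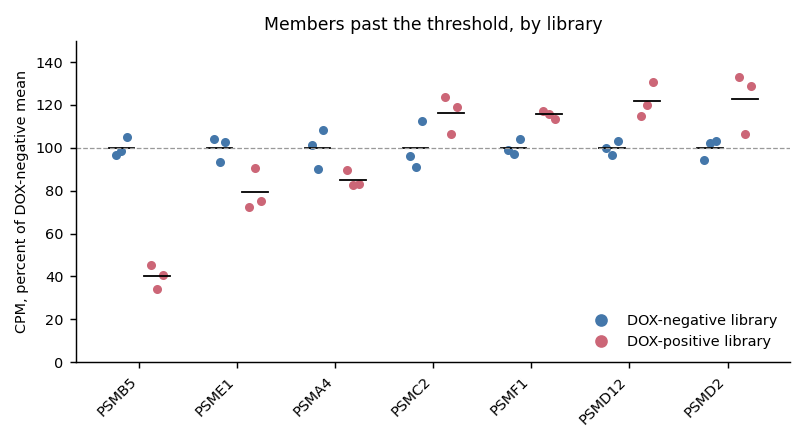
CPM of the 7 called members as a percent of the DOX-negative mean (vertical axis, linear from 0), in DOX-negative (blue) and DOX-positive (red) libraries, with group means as bars. PSMB5 lies at 40.1% on average, the other 6 lie much closer to 100%, and the groups of PSMC2 overlap. The 4 genes above 100% are below it with the TPM as deposited, but not with the rescaled TPM.

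Among the 7 assembly chaperones (PSMG1 to PSMG4, which assemble the core, and PSMD5, PSMD9 and PSMD10, which assemble the base), 0 were called by edgeR and 1, PSMD9, had an unadjusted p under 0.05. Over all genes 26.7% were called, and the median log2 fold change of the chaperones was 0.086. PSMD9 was at 36.3, 36.9 and 37.1 CPM against 42.8, 40.6 and 40.7 CPM, without overlap, yet its log2 fold change of 0.17 did not pass (edgeR adjusted p = 0.124). PSMG4, which works with PSMG3, had the widest interval of the chaperones, at a group mean of 7.62 CPM before and 8.28 CPM after DOX.

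Summed by part in rescaled TPM, the alpha ring was at 3391 ± 124 in DOX-negative and 3127 ± 190 in DOX-positive cells (SD, n = 3), and the constitutive beta ring at 2813 ± 135 and 2743 ± 237. The base was at 2138 ± 91.8 and 2355 ± 224 and the lid at 1281 ± 40.7 and 1292 ± 63.8. The groups overlapped in each of these 4 sums. The activators with PSMF1, at 690 ± 9.73 and 661 ± 22.8, did not overlap in rescaled TPM but did overlap in CPM. All members together summed to 11152 ± 365 and 11032 ± 665 TPM, a log2 difference of -0.017. PSMB5 made up 132 of the 2813 TPM of the beta ring in DOX-negative cells. The DOX-positive libraries were not alike, and replicate 2 was the lowest of the 3 for 33 of the 46 members, with a median of 97.9% of the DOX-negative mean, beside 106% and 104% in replicates 1 and 3. Nor were the DOX-negative libraries, where replicate 3 was the highest for 37 of the 46 members. Its median was 105.6% of the DOX-negative mean, beside 96.4% and 97.1% in replicates 1 and 2.

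Genes that work with the proteasome were described from a list of 38, of which 7 (18.4%) were called, 3 higher and 4 lower, with a median of -0.022. This share is below the 26.7% of all genes called. NFE2L1, the transcription factor that induces proteasome subunit genes when proteasome activity is low, was at 205, 227 and 198 CPM against 252, 244 and 234 CPM. The groups did not overlap, and the log2 fold change was 0.21 (SE 0.0652 and edgeR adjusted p = 0.0184), or -0.18 with the TPM as deposited. The call was lost without DOX-negative replicate 1 (adjusted p = 0.0894) or 3 (0.0853) or DOX-positive replicate 1 (0.0823), and with total counts (0.0530) or limma on rescaled TPM (0.0857). DDI2, the protease that activates NFE2L1, was at -0.15 (edgeR adjusted p = 0.578), and NGLY1, which removes its glycans, at -0.042 (0.821). NFE2L2, a related factor of the antioxidant response, fell by 0.29 on the log2 scale (edgeR adjusted p = 0.0020).

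The largest falls in this list were in the ubiquitin genes. NPLOC4, which with UFD1 recruits ubiquitinated proteins to the VCP unfoldase, fell from 245, 255 and 261 CPM to 157, 121 and 143 CPM, a log2 fold change of -0.86 (SE 0.0769 and edgeR adjusted p = 3.01e-08). UBA6, a ubiquitin-activating enzyme, fell from 201, 192 and 218 CPM to 110, 110 and 121 CPM, a log2 fold change of -0.85 (SE 0.0687 and edgeR adjusted p = 7.04e-09). Neither overlapped between groups. UBA1, the main activating enzyme, was at -0.079, UFD1 at 0.037 and VCP at 0.089, and 0 of these 3 were called. UBE3C, a ligase bound to the proteasome, was higher by 0.20 (edgeR adjusted p = 0.0123) and had a negative sign with the TPM as deposited (-0.19). Its call was lost without DOX-negative replicate 1 (0.0638) or DOX-positive replicate 3 (0.0537).

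In the list of immunoproteasome regulators and peptide loading, the peptidase ERAP2 fell by 0.36 (edgeR adjusted p = 8.76e-04). B2M, the MHC class I light chain, was higher by 0.22 (edgeR adjusted p = 0.0149), or -0.17 with the TPM as deposited. It was lost without DOX-negative replicate 3 (adjusted p = 0.0675) or DOX-positive replicate 2 (0.0596) and with rescaled TPM (0.0912). IRF1 (-0.051), NLRC5 (0.12) and TAP1 (-0.19, edgeR adjusted p = 0.128) were not called. Of the interferon-inducible proteasome genes PSMB8, PSMB9, PSMB10, PSME1 and PSME2, PSME1 was the only gene called, where 26.7% of all genes were called.

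Besides PSMB5, 8 members hold the heptamer ATCAGTA in their principal transcript, so that 9 of 46 (19.6%) do, beside 16.9% of the 12392 tested genes with a transcript model. PSMA1, PSMA6 and PSMD3 have 1 coding copy, and PSMC1, PSMD11 and PSMD14 have 1 in the 3′UTR. Of these 6, 0 were called lower or higher. Over all tested genes with a model, 23.1% with 1 coding copy and 30.6% with 1 copy in the 3′UTR were called lower. PSMA4 and PSMA5 have 2 copies in the 3′UTR. PSMA4 fell slightly and PSMA5 was at 0.026. The copies of PSMA4 lie in a transcript of 4411 bases, whereas the deposited TPM implies a length of 1639 bases for this gene. Likewise, the copy of PSMC1 lies at base 4012 of 4448, and the implied length of that gene is 2088 bases. Shown are the coding copies of 3 members that were not called and 1 copy of PSMA4, the other member with copies that fell.
PSMA1, coding: atgtttcgaaATCAGTAtgacaatgat
PSMA6, coding: gtggccttacATCAGTAgctgtcagag
PSMD3, coding: gatgcagaagATCAGTActcagaaccg
PSMA4, 3′UTR: ttatcaactgATCAGTAcataacctgt
The sites lie at chr11:14519028-14519034 (PSMA1, minus strand), chr14:35308031-35308037 (PSMA6), chr17:39988716-39988722 (PSMD3) and chr15:78550220-78550226 (PSMA4), the last 3 on the plus strand. The PSMA1 window matched the MUC1 window at 14 of 27 positions, heptamer included, and PSMA1 was at -0.0060 on the log2 scale. The 37 members without a copy had a median of 0.045. Called lower was 1 (PSME1, 2.7%), beside 12.3% of all genes without a copy, and 4 were called higher.

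Over all tested genes with a model, 12.3% of the 10303 without a copy were called lower. The share was 34.4% of the 122 with a copy in both the coding part and the 3′UTR, the class of PSMB5. It was 34.2% with 2 or more copies, 30.6% with 1 copy in the 3′UTR and 23.1% with 1 coding copy. Within the class of PSMB5, 5 genes (4.10%) had a log2 fold change below -1, and the median was -0.14. These shares describe the fold changes from which the word was chosen. Among the related genes NPLOC4 is of the same class, and UBA6 and NFE2L2 have 1 copy in the 3′UTR. The part of the heptamer in these falls was not tested.
NPLOC4, coding: gatgagattgATCAGTAcctcagcaaa
NPLOC4, 3′UTR: aataacagttATCAGTAattcctgccc
UBA6, 3′UTR: taagggaaacATCAGTAagaaactgca
The sites lie at chr17:81613366-81613372 and chr17:81558620-81558626 for NPLOC4 and at chr4:67618860-67618866 for UBA6, on the minus strand.

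**Figure D5:**
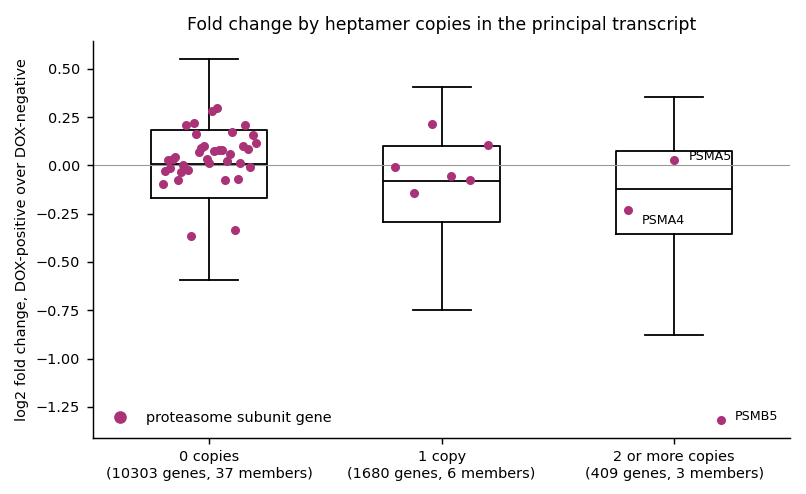
Log2 fold change of DOX-positive over DOX-negative cells (vertical axis) by the number of heptamer copies in the principal transcript. Boxes give the median and quartiles of all tested genes with whiskers from the 5th to the 95th percentile, and purple points are proteasome genes (37, 6 and 3 members). PSMB5 lies at -1.32, below the whisker of its class, beside PSMA4 at -0.23 and PSMA5 at 0.026.

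RefSeq promoters (300 bases, 250 before to 50 after the start, GRCh38.p14) were matched for 40 of the 46 members, giving 49 promoters. The antioxidant response element core TGACNNNGC, which NFE2L1 binds, was found on either strand in 15 of the 49 (30.6%), beside 13.4% of all 35116 promoters. The interferon-stimulated response element core (GAAA, any 2 bases, GAAA) was found in 7 (14.3%), beside 3.57%. The 7 members with the latter are PSMA4, PSMB4, PSMB8, PSMB10, PSME1, PSME2 and PSMG4, of which PSMA4 and PSME1 fell and the other 5 were not called. Over all genes, 13.7% were called lower. The E-box CACGTG, which MYC binds, was found in 3 (6.12%), beside 7.26%. Shown are the interferon elements of 3 interferon-inducible members, with the match in capitals, in the promoters chr6:32843998-32844297 (PSMB8, minus), chr16:67936801-67937100 (PSMB10, minus) and chr14:24135944-24136243 (PSME1, plus).
PSMB8: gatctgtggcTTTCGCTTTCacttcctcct
PSMB10: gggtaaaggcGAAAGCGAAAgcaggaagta
PSME1: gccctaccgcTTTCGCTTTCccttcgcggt
In PSMB8 and PSME1 the element is read on the other strand. PSME1 fell and PSMB8 and PSMB10 were not called. A change of PSMB10 was not detectable at this depth, and whether these genes differ in their change was not tested.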

How the data were processed

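Poly(A)-selected stranded RNA-Seq libraries were made by the authors from triplicate cultures. The authors deposited whole-number read counts per gene and TPM values for the same 6 libraries. The submitters' processing notes name STAR, DESeq2 and GRCh38 (hg38). Settings, the counting step, its use of strand and the annotation are not given in the sources used here. Coordinates are from GENCODE 29 on GRCh38.

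Counts were filtered with filterByExpr, scaled with TMM factors (0.986 to 1.03) and tested two-sided with glmQLFit and glmQLFTest in edgeR 4.0.16 (R 4.3.3), with group as the only term. P values were adjusted by Benjamini-Hochberg over 14292 genes. SE was obtained from the size of the log2 fold change over the root of the F statistic. P values measure the spread between cultures of 1 line. A floor of 3 counts equals 0.129 to 0.199 CPM, and intervals of counts cover counting error only. The script was tested on simulated data. Libraries within a group varied beyond sampling noise (chi-square per degree of freedom 3.78 to 20.2).

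Values in every library were planned for MUC1, the catalytic subunits, the activators, the 10 members with the largest changes and the called related genes. Members, lists and motifs were chosen with earlier results of these data known. Alternatives were DESeq2 1.42.0, other scalings, filters and thresholds, limma 3.58.1 on TPM, a replicate block, thinning and each library left out. Some genes and motifs are not reported here.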

Additional observations from a re-analysis of the deposited data

How the results depend on the processing

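PSMB5 was called lower in all 17 alternatives. Leaving out each library in turn gave between 2 and 6 members called higher, 2 to 4 called lower, 2784 to 3645 of all genes and 5 to 7 related genes. Over these 6 settings the log2 fold change ranged from -0.083 to 0.096 for PSMB6, from -0.17 to 0.21 for PSMB10, from -0.016 to 0.050 for PSME3, from -0.13 to 0.11 for PSMB8 and from -0.16 to 0.017 for PSMB3, so these signs are not determined. With total counts PSMB6 was at -0.032, PSMB10 at -2.9e-04 and PSME3 at -0.022, and 39.3% of all calls were higher. PSMB6 was at -9.5e-04 with at least 10 counts in every library, -0.0029 with the replicate block and -9.8e-04 after thinning, where PSMB8 was at 0.020. On rescaled TPM PSMB6 was at -0.027 and PSME3 at -0.011. At an adjusted p of 0.01, 2307 genes, 2 members higher and 4 related genes remained past the threshold.

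With limma on log2(TPM + 1) of the deposited TPM, 443 genes, 0 members higher, 1 lower (PSMB5) and 2 related genes were called, 6.77% of all calls were higher, and the member median was -0.35. With log2(TPM + 0.1) these were 408, 0, 1 and 2, and -0.36. The deposited TPM carries the share of 5 short noncoding RNAs, and with the TPM rescaled without them 6 members were called. Under the first and second of these settings the log2 fold changes were -0.39 and -0.40 for PSMB6, -0.19 and -0.19 for PSMB7, -0.25 and -0.34 for PSMB10, -0.38 and -0.38 for PSME3, -0.29 and -0.29 for PSME4, -0.10 and -0.10 for PSMD2, -0.11 and -0.11 for PSMD12, -0.17 and -0.17 for PSMC2, -0.18 and -0.18 for PSMF1, -0.22 and -0.22 for PSMD9, -0.19 and -0.19 for UBE3C, -0.18 and -0.18 for NFE2L1, and -0.17 and -0.18 for B2M. The log2 changes of the summed deposited TPM were -0.49 for the alpha ring, -0.41 for the beta ring, -0.47 for the immunoproteasome subunits, -0.23 for the base, -0.36 for the lid, -0.34 for the chaperones, -0.43 for the activators with PSMF1 and -0.39 for all members. The activator sum was at 0.062 in CPM and 0.0024 per kilobase of transcript, the latter chosen after seeing the data, against -0.064 in rescaled TPM.

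The deviations of same-numbered libraries had correlations of -0.070, -0.14 and -0.037. Differently numbered libraries were not compared in this way, so whether the numbers mark pairs was not settled. The replicate block called 6 members, without PSMC2 (0.22, adjusted p = 0.0510), and 3158 of all genes. Depth limits PSMB10, with 19 to 41 counts in a library.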
